A study of Homo sapiens with 6 samples.

Results

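The anaphase-promoting complex (APC/C) and the genes of the spindle checkpoint were examined here as 34 named genes of the 60612 genes in the deposited table. They were chosen by name and by role: 14 core subunits of the complex, its co-activators and inhibitor, its E2 enzymes, the checkpoint kinases and MAD2 proteins with their partners, the RZZ complex, and securin with separase. All 34 symbols matched 1 row each, and all 34 passed the filter on low counts.

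The APC/C is a ubiquitin ligase that marks cyclins, securin and other mitotic proteins for destruction. Its co-activator CDC20 works in mitosis and its co-activator FZR1 (CDH1) from late mitosis into G1, while the spindle checkpoint holds CDC20 in a complex with MAD2, BUBR1 and BUB3 until every chromosome is attached to the spindle. Release of CDC20 lets the complex mark securin, which frees separase to cut cohesin.

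RNA was sequenced from U87 cells, an established human glioblastoma line grown in medium with serum. The 3 NC libraries came from cells given a lentiviral scramble shRNA and the 3 shPRMT6 libraries from cells given a lentiviral shRNA against PRMT6, an arginine methyltransferase. The design asks how lowering PRMT6 changes gene expression. Which of the PRMT6 shRNAs was used, and whether the 3 shPRMT6 libraries share the same one, is not given in the sources used here. The study's methods call the replicates of each group independent, without saying what was separate, and the p-values measure the spread between these libraries.

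The libraries held 56388161 to 75887696 counts, and the member with the fewest counts, ANAPC10, had at least 427 in every library. PRMT6 itself was at 9.33, 7.97 and 7.19 CPM (counts relative to library size, scaled by the TMM method of edgeR) in the NC libraries, in the order of their replicate numbers, and at 3.57, 4.58 and 5.24 CPM in the shPRMT6 libraries, and all values below follow this order. The groups did not overlap, with a log2 fold change of -0.87 (SE 0.187, adjusted p = 0.0225 in edgeR's quasi-likelihood test). Its adjusted p was 0.0613 when NC replicate 1 was left out, 0.0588 when shPRMT6 replicate 1 was, and 0.0713 when shPRMT6 replicate 2 was. Of 12 glioma and mesenchymal markers, 9 were over 1 CPM in every library, VIM among them, while S100B was at 0 and GFAP and SOX2 under 1 CPM throughout. Of 6 immune markers, CD68, a lysosomal protein, was at 144 to 316 CPM and the other 5, PTPRC and CD3E among them, were not over 1 CPM in all libraries. Of 4 neuron markers 3 were over 1 CPM in every library, and the list summed to 35.5 to 36.7 CPM in NC and 31.5 to 34.3 CPM in shPRMT6. The summed level of 4 epithelial markers was 13.3 to 19.7 CPM in NC and 3.60 to 9.69 CPM in shPRMT6, and its part in the results was not tested.

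Most of the members outside the core complex were lower in shPRMT6, and most subunits of the complex itself did not pass the test. Of the 34 genes, 15 were lower and 2 were higher at an adjusted p under 0.05, and 17 did not pass. Over all 18106 genes tested, 9.06% were lower, 9.51% were higher and 18.6% passed in either direction. Among the 14 core subunits 1 was lower, 1 was higher and 12 did not pass, with a median log2 fold change of 0.08. Among the other 20 genes 14 were lower, 1 was higher and 5 did not pass, with a median of -0.56. General cell cycle lists, described below, had similar shares, with 36 of 49 G2/M genes and 31 of 45 S phase genes lower. The median over all genes tested was -0.01. In bulk RNA, fewer cells in mitosis and less RNA per cell cannot be told apart. The study reports, from flow cytometry, a cell cycle arrest before S phase in U87 cells after PRMT6 silencing. The part of that arrest in these RNA values was not tested.

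Every shPRMT6 library lay under every NC library in 17 of the 34 genes, against 19.9% of all genes, and above every NC library in 3, against 20.3% of all genes. By the threshold of the study's methods, a log2 fold change beyond 1 in size and an unadjusted p under 0.05, CDC20, UBE2S and MAD2L2 were lower and no member was higher, where 2.63% of all genes were lower. UBE2S and MAD2L2 lay just inside the fold limit, at -1.02 and -1.001, and UBE2C just outside it, at -0.997. That count was 1 when NC replicate 1, NC replicate 3 or shPRMT6 replicate 3 was left out.

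**Figure D1:**
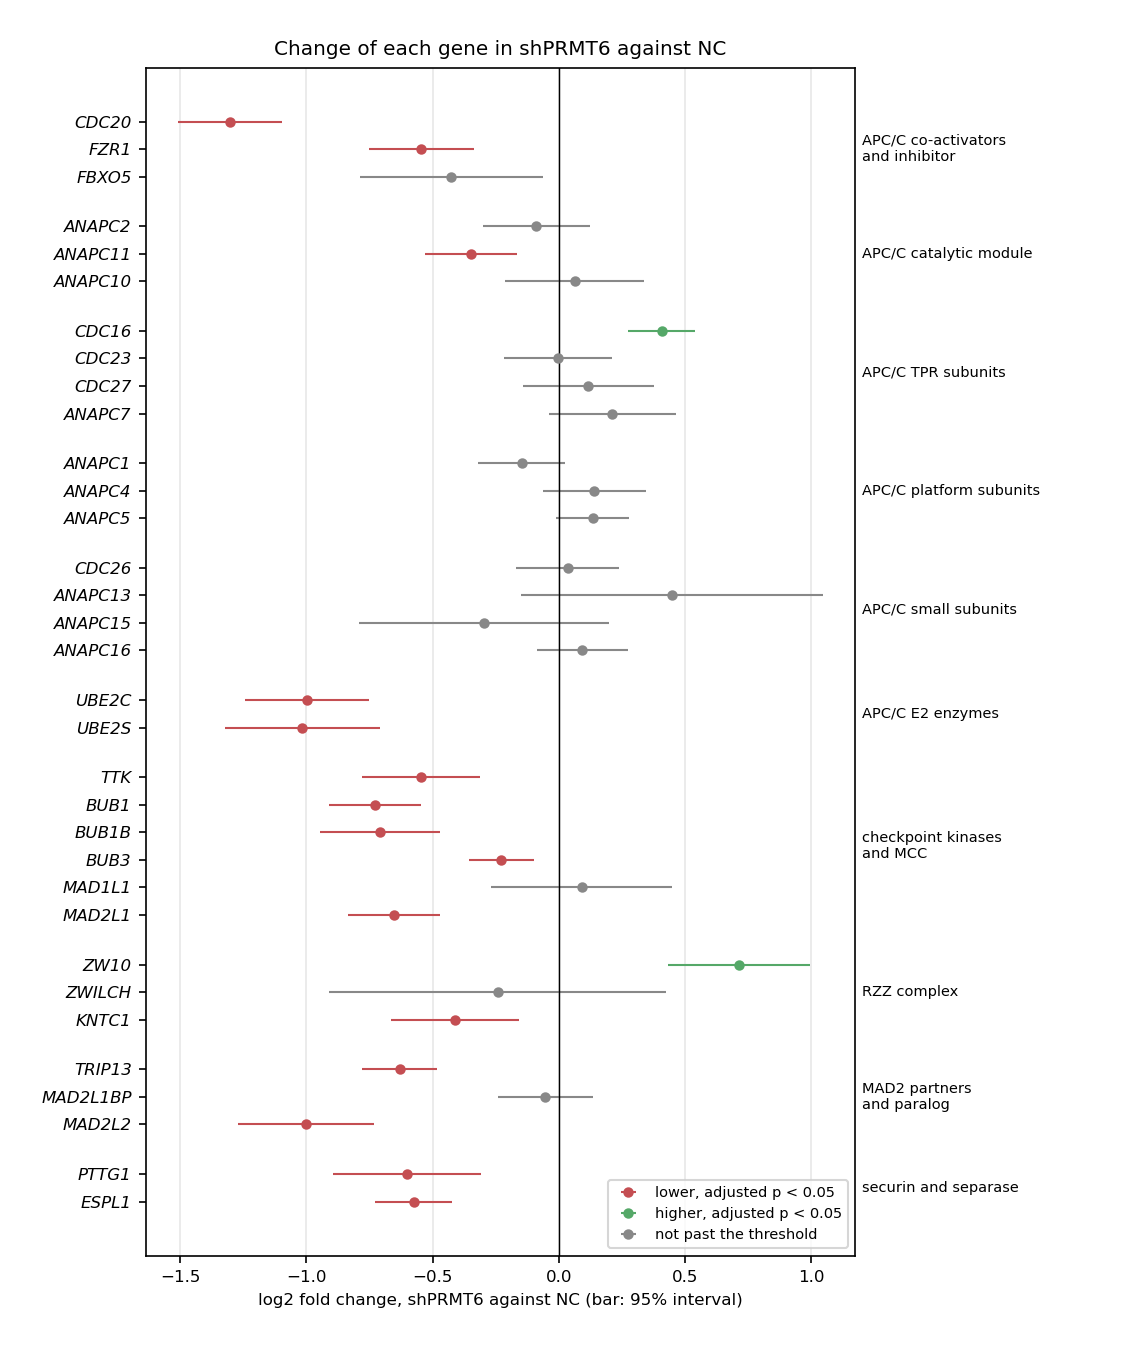
Log2 fold change of 33 of the 34 genes in shPRMT6 against NC (x axis, with the 95% interval as a bar), with genes grouped by role and coloured by the edgeR call at an adjusted p under 0.05. CDC20 is at the far left at -1.30, the core subunits lie around 0, and CDC16 and ZW10 are the 2 genes called higher.

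The stretches just before the start sites of CDC20, ESPL1, PTTG1, MAD2L2 and CDC16 are shown because the first 4 were lower and the last, a core subunit, was higher. They were picked after the values had been seen. The sequences are from RefSeq promoters on GRCh38.p14, read on the gene's own strand (minus for MAD2L2, plus for the others), begin 130 bases before the RefSeq start, and end before the first annotated exon. Capitals mark TTTGAA, the core of the cell cycle genes homology region found in many mitotic promoters, and CCAAT, the box bound by NF-Y, on either strand (ATTGG is CCAAT read on the other strand).
CDC20, chr1:43358851-43358954: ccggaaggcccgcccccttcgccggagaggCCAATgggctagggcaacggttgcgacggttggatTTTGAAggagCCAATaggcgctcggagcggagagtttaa
ESPL1, chr12:53268169-53268298: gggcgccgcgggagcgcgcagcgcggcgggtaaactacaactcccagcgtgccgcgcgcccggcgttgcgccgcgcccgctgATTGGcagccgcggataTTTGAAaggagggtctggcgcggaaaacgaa
PTTG1, chr5:160421725-160421821: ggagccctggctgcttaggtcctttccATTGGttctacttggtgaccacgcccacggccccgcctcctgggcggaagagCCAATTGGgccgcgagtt
MAD2L2, chr1:11691651-11691689: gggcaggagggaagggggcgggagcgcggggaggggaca
CDC16, chr13:114234767-114234886: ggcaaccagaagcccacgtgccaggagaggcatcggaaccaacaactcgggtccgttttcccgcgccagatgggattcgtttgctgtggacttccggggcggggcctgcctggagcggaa

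In the CDC20 stretch, TTTGAA begins 65 bases before the start, between CCAAT boxes that begin 100 and 55 bases before it. In ESPL1, TTTGAA begins 31 bases and an inverted CCAAT box 48 bases before the start. The PTTG1 stretch holds 3 CCAAT boxes, of which the pair at 51 and 48 bases overlap, and no TTTGAA. The MAD2L2 stretch is short, since an annotated exon begins upstream of the RefSeq start, and neither motif was found in it or in the whole window described below. The CDC16 stretch holds neither motif, but a CCAAT box begins 183 bases before its start, outside the stretch shown. Of the CDC20 promoter primer pairs listed by the study, pair F5 lies from 233 to 126 bases before the RefSeq start, upstream of the TTTGAA shown for CDC20. Pair F5 lies across another TTTGAA on the opposite strand (read as TTCAAA) that begins 178 bases before the start. The forward primer of pair F6 lies from 39 to 20 bases before the start. The study reports PRMT6 and H3R2me2a enrichment at pairs F1 to F4, and less H3R2me2a after PRMT6 silencing at F3 and F4. None of the primers of pairs F1 to F4 was found in the whole window described below.

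Over the whole promoter window, from 250 bases before to 50 after the start, 30 of the 34 members had a RefSeq promoter. UBE2C, TTK, BUB3 and KNTC1 had none in the table. TTTGAA or TTCGAA on either strand was found in 7 of the 11 lower genes with a promoter (63.6%), in 3 of the 19 members not lower (15.8%), and in 16.4% of all 35116 promoters. Counting TTTGAA alone left 5 of the 11. CCAAT was found in 7 of the 11 lower genes, in 6 of the 19 others and in 34.6% of all promoters. The lower genes with TTTGAA or TTCGAA were CDC20, FZR1, BUB1, BUB1B, MAD2L1, TRIP13 and ESPL1. In FZR1 the motif begins 226 bases before the start. In BUB1, TRIP13 and MAD2L1 it begins 1, 3 and 24 bases after the start, and BUB1 and TRIP13 hold only TTCGAA. The lower genes and the others were split by the calls of these same data. In 49 genes of a G2/M list without the members, 31 of 43 with a promoter held TTTGAA or TTCGAA (72.1%). In the S phase list, where 31 of 45 genes were lower, 3 of 34 with a promoter held TTTGAA or TTCGAA (8.8%). These counts describe letters in a window and carry no test.

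The 2 co-activators were both lower. CDC20 (ENSG00000117399, chromosome 1, plus strand, 43358955 to 43363203 on GRCh38), which carries substrates to the APC/C in mitosis, was at 179.8, 148 and 171 CPM in the NC libraries and at 65.8, 70.3 and 66.3 CPM in the shPRMT6 libraries. Every shPRMT6 library was far under the lowest NC library, and the spread within shPRMT6 was small. CDC20 had a log2 fold change of -1.30 (SE 0.0859, 95% interval -1.51 to -1.10, adjusted p = 0.00058), the largest fall of the 34 genes.

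FZR1, which takes over from CDC20 at the end of mitosis, was at 44.7, 41.3 and 49.6 CPM in NC and at 30.8, 30.9 and 31.2 CPM in shPRMT6. The groups were apart, with a log2 fold change of -0.54 (SE 0.0871, adjusted p = 0.00827). FBXO5 (EMI1), which blocks the APC/C before mitosis, was at 48.3, 67.4 and 46.9 CPM in NC and at 37.4, 41.1 and 42.5 CPM in shPRMT6. All shPRMT6 libraries were below all NC libraries, with NC replicate 2 far above the other NC libraries, and the log2 fold change of -0.43 (SE 0.152) had an adjusted p of 0.104 with edgeR and 0.0164 with DESeq2 on the same genes.

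The E2 enzymes carry the ubiquitin that is joined to substrates of the complex. UBE2C (UBCH10), which starts chains, was at 263, 203 and 237 CPM in NC and at 122, 119 and 111 CPM in shPRMT6. Its log2 fold change was -0.997 (SE 0.102, adjusted p = 0.00196). UBE2S, which lengthens the chains, was at 369, 264 and 355 CPM in NC and at 169, 163 and 157 CPM in shPRMT6.

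The log2 fold change of UBE2S was -1.02 (SE 0.129, adjusted p = 0.0038). Both enzymes were at their lowest NC level in replicate 2, which was still above every shPRMT6 library. For UBE2S, 12.4% of its 75-base stretches also occur elsewhere in annotated transcripts, UBE2SP1 and UBE2SP2 among them.

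**Figure D2:**
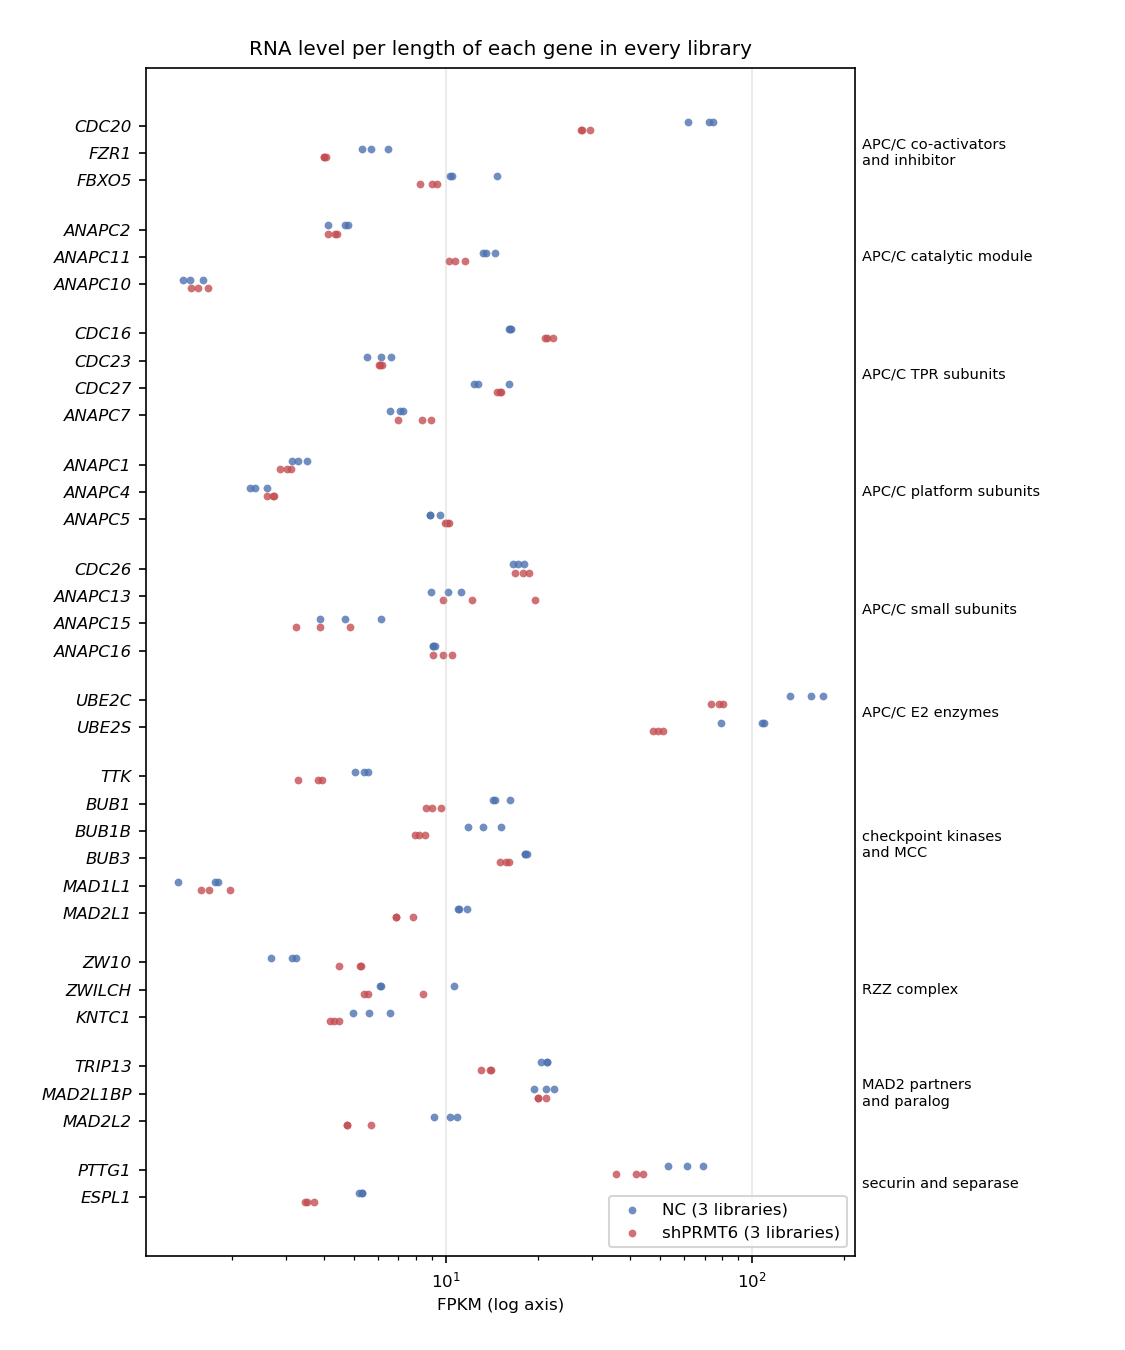
Deposited FPKM of 33 of the 34 genes (x axis, log scale) in the 3 NC (blue) and 3 shPRMT6 (red) libraries, grouped by role. UBE2C, UBE2S, CDC20 and PTTG1 stand above the rest in both groups, and blue and red overlap in 10 of the 14 core subunits.

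Levels can be compared between genes only per length, and FPKM gives that. In NC, UBE2C was the highest at 153 ± 19.0 FPKM (SD, n = 3), then UBE2S at 99.1 ± 17.0, CDC20 at 69.5 ± 6.65 and PTTG1 at 61.2 ± 7.99. The ranges of CDC20 and PTTG1 overlapped between libraries, though within each NC library CDC20 was the higher (74.4 and 69.0, 62.0 and 53.0, 72.2 and 61.6 FPKM), and the next gene below them was at 21.1 FPKM. In shPRMT6 the order was UBE2C at 77.2 ± 3.51, UBE2S at 49.3 ± 1.79, PTTG1 at 40.6 ± 4.16 and CDC20 at 28.4 ± 0.993. There PTTG1 ran from 36.0 to 44.1 FPKM and CDC20 from 27.7 to 29.5 FPKM, so PTTG1 was the higher in each library. The lowest levels were those of ANAPC10 at 1.48 ± 0.112 and MAD1L1 at 1.64 ± 0.259 FPKM in NC. Of the exonic bases of ANAPC10, 24.6% overlap genes on the same strand and 10.4% genes on the other strand. The effect of this on its level was not tested.

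Of the 14 core subunits 2 passed the test, where 18.6% of all genes tested passed in either direction. The 14 subunits summed to 699.6, 720.2 and 681 CPM in NC and to 739, 745 and 759 CPM in shPRMT6, which is 106.7% of NC. The co-activators with FBXO5 summed to 52.3% of their NC level.

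In the catalytic module, ANAPC11, the RING subunit that binds the E2, was at 70.0, 64.8 and 62.8 CPM in NC and at 54.9, 51.3 and 48.9 CPM in shPRMT6. Its log2 fold change was -0.35 (SE 0.0763, adjusted p = 0.0238), and the adjusted p rose to between 0.0518 and 0.0916 when NC replicate 1, NC replicate 3, shPRMT6 replicate 2 or shPRMT6 replicate 3 was left out. The cullin-like ANAPC2 (log2 fold change -0.09, adjusted p = 0.547) and ANAPC10, which helps bind substrates (0.06, adjusted p = 0.759), did not pass.

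CDC16, one of the TPR subunits that form the arc lamp of the complex, went the other way. It was at 77.1, 75.5 and 76.4 CPM in NC and at 99.1, 105 and 99.7 CPM in shPRMT6. The groups were far apart for their narrow spread, with a log2 fold change of 0.41 (SE 0.0553, adjusted p = 0.00487). The other TPR subunits, CDC23, CDC27 and ANAPC7, had log2 fold changes of -0.00, 0.12 and 0.21 with overlapping groups. CDC27 passed in 1 case, without NC replicate 2 (log2 fold change 0.25, adjusted p = 0.0304).

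The platform subunits ANAPC1, ANAPC4 and ANAPC5 had log2 fold changes of -0.15, 0.14 and 0.13, with adjusted p between 0.178 and 0.311. ANAPC5 was at 129 to 141 CPM in NC and 144 to 148 CPM in shPRMT6, and ANAPC1 at 52.7 to 58.7 CPM in NC and 47.7 to 51.4 CPM in shPRMT6, so the groups were apart in both without passing. Among the small subunits CDC26, ANAPC13, ANAPC15 and ANAPC16, none passed. ANAPC13 was at 27.4, 34.1 and 54.5 CPM in shPRMT6 against 25.4 to 31.5 in NC, so shPRMT6 replicate 3 stood above the rest, with a log2 fold change of 0.45 (SE 0.25, adjusted p = 0.27). ANAPC1 shares 26.1% of its 75-base stretches with other annotated genes.

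Of the 6 checkpoint kinases and mitotic checkpoint proteins, 5 were lower and MAD1L1 did not pass. Over all genes tested 9.06% were lower, and in the G2/M list 36 of 49 genes were. BUB1, the kinase that recruits checkpoint proteins to the kinetochore, was at 108, 121 and 107 CPM in NC and at 67.2, 64.4 and 71.8 CPM in shPRMT6. Its log2 fold change was -0.73 (SE 0.0768, adjusted p = 0.00213). BUB1B (BUBR1), which binds CDC20 in the checkpoint complex, was at 63.1, 80.1 and 69.3 CPM in NC and at 41.8, 43.2 and 45.2 CPM in shPRMT6.

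The log2 fold change of BUB1B was -0.71 (SE 0.0996, adjusted p = 0.00542). MAD2L1 (MAD2), the protein that locks onto CDC20, was at 72.9, 77.1 and 71.4 CPM in NC and at 44.9, 45.0 and 50.9 CPM in shPRMT6, a log2 fold change of -0.65 (SE 0.0768, adjusted p = 0.00299). In all of these the lowest NC library was above the highest shPRMT6 library. TTK (MPS1), the kinase at the top of the checkpoint, was at 27.8, 29.5 and 30.1 CPM in NC and at 17.8, 20.7 and 21.4 CPM in shPRMT6, a log2 fold change of -0.55 (SE 0.0977, adjusted p = 0.0121).

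BUB3, which carries BUB1 and BUBR1 to the kinetochore, fell least of these 5. It was at 176 to 177 CPM in NC and at 152, 155 and 144 CPM in shPRMT6, with a log2 fold change of -0.23 (SE 0.0536, adjusted p = 0.0304). Leaving out any library but NC replicate 2 lost its call, with adjusted p between 0.0582 and 0.11. MAD1L1 (MAD1), the anchor for MAD2 at the kinetochore, ran from 11.6 to 15.4 CPM in NC and from 13.5 to 17.0 CPM in shPRMT6 (log2 fold change 0.09, 95% interval -0.27 to 0.45, adjusted p = 0.729).

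The 3 genes of the RZZ complex, which brings dynein and MAD1 to kinetochores, differed from each other. ZW10 was at 9.42, 10.9 and 11.2 CPM in NC and at 15.4, 18.1 and 18.2 CPM in shPRMT6, the largest rise of the 34 genes (log2 fold change 0.71, SE 0.118, adjusted p = 0.00916). ZW10 also acts in traffic between the Golgi and the endoplasmic reticulum. KNTC1 (ROD) was at 67.7, 88.6 and 75.1 CPM in NC and at 56.1, 57.9 and 60.1 CPM in shPRMT6 (log2 fold change -0.41, SE 0.106, adjusted p = 0.0404).

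KNTC1 lost its call when NC replicate 3 or any 1 shPRMT6 library was left out (adjusted p from 0.0955 to 0.126). ZWILCH was at 61.7, 35.4 and 34.7 CPM in NC and at 31.1, 32.0 and 48.3 CPM in shPRMT6. One library in each group stood above the other 2, the groups overlapped and the adjusted p was 0.605. Of the exonic bases of ZWILCH, 10.9% overlap genes on the other strand, and whether strand was used in counting is not given in the sources used here.

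TRIP13, the ATPase that opens MAD2 and so takes the checkpoint complex apart, was at 85.1, 80.5 and 83.9 CPM in NC and at 54.7, 51.3 and 55.2 CPM in shPRMT6. The groups were far apart, with a log2 fold change of -0.63 (SE 0.0624, adjusted p = 0.00184). Its adaptor MAD2L1BP (p31comet) was at 42.7 to 49.2 CPM in NC and 43.7 to 46.3 CPM in shPRMT6, a log2 fold change of -0.05 (95% interval -0.24 to 0.13, adjusted p = 0.689). MAD2L2 (REV7), a MAD2 relative that also works in DNA polymerase zeta and shieldin, was at 43.4, 36.1 and 40.3 CPM in NC and at 22.4, 18.8 and 18.8 CPM in shPRMT6 (log2 fold change -1.001, SE 0.113, adjusted p = 0.00256).

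Securin and separase, which the APC/C releases from each other, were lower together. PTTG1 (securin) was at 163.6, 125 and 143 CPM in NC and at 103, 97.6 and 83.9 CPM in shPRMT6, a log2 fold change of -0.60 (SE 0.122, adjusted p = 0.0191). Without NC replicate 3, shPRMT6 replicate 2 or shPRMT6 replicate 3 its adjusted p was between 0.0609 and 0.0633. ESPL1 (separase) was at 55.7, 56.1 and 55.8 CPM in NC and at 38.9, 37.1 and 36.5 CPM in shPRMT6. The NC libraries of ESPL1 lay within 1 CPM of each other, with a log2 fold change of -0.58 (SE 0.0633, adjusted p = 0.0024).

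Ratios of partner genes within a library do not depend on the scaling between libraries. Of 13 ratios computed, 11 did not overlap between the groups. The share over all gene pairs was not computed. Of all single genes, 19.9% lay fully lower and 20.3% fully higher in shPRMT6. Several of the ratios share CDC20, so they are not separate results. Each of the 11 had the smallest p that an exact two-sided permutation test of 3 against 3 libraries allows, 0.1. After Benjamini-Hochberg adjustment over the 13 this was 0.118, so no ratio could pass. CDC20 to FZR1 in FPKM was 13.0, 11.6 and 11.2 in NC and 6.91, 7.37 and 6.89 in shPRMT6. On the log2 CPM scale that ratio differed by -0.76.

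CDC20 also had less RNA relative to each of its checkpoint partners in shPRMT6. The log2 ratio differed by -0.64 to MAD2L1, by -0.60 to BUB1B and by -1.07 to BUB3. MAD2L1 to MAD1L1 differed by -0.75 and TRIP13 to MAD2L1BP by -0.58. In contrast, UBE2C to UBE2S differed by 0.01 (exact permutation p = 0.8) and PTTG1 to ESPL1 by -0.02 (exact permutation p = 1.0), with overlapping groups in both.

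**Figure D3:**
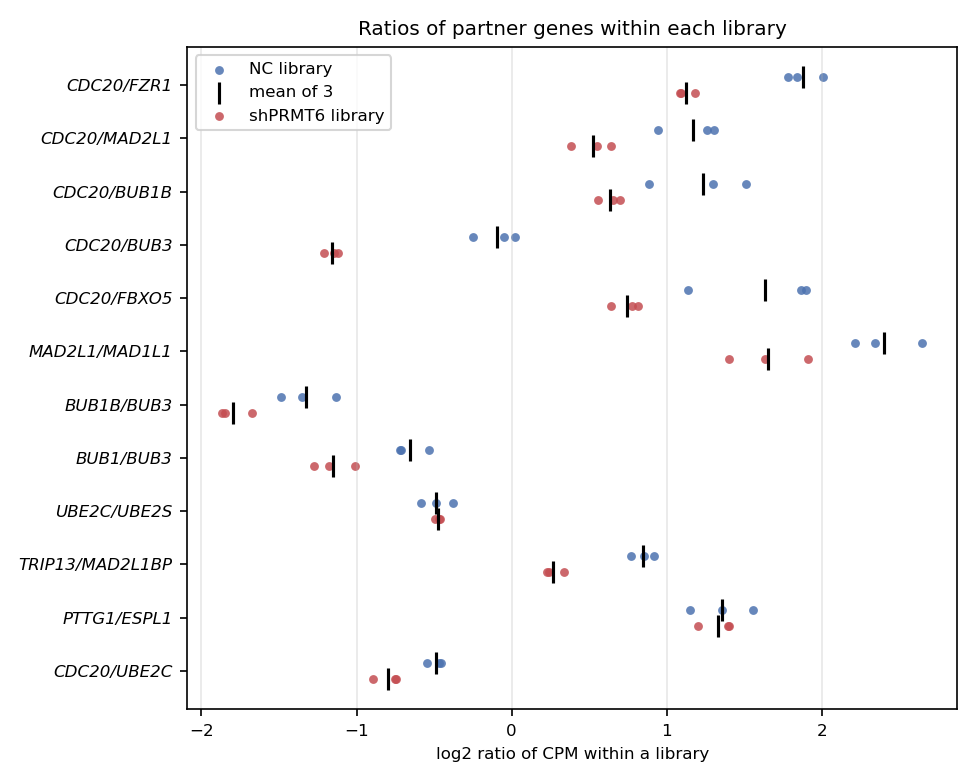
Log2 ratio of CPM of 12 pairs of partner genes (x axis) in each NC (blue) and shPRMT6 (red) library, with the mean of 3 libraries as a black tick. The groups are apart in 10 pairs and overlap in UBE2C/UBE2S and PTTG1/ESPL1. The share over all gene pairs was not computed.

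Each member was then set against 49 other G2/M genes of the same library, by its log2 CPM minus their mean log2 CPM. This comparison was added after the values had been seen and is given without a test. CDC20 was at 1.17, 0.75 and 1.13 on this scale in NC and at 0.37, 0.46 and 0.37 in shPRMT6, a difference of -0.62, and it was the 1 member of 34 whose shPRMT6 libraries all lay under the NC libraries, a share near that of all genes on this scale (1.78%). In 19 members every shPRMT6 library lay above every NC library, against 62.1% of all genes, and 14 overlapped. The 19 include BUB3 (0.45), KNTC1 (0.27) and ANAPC11 (0.32), which were lower in CPM. BUB1 differed by -0.05, BUB1B by -0.03, MAD2L1 by 0.02, TRIP13 by 0.04 and PTTG1 by 0.08, all with overlapping groups. UBE2C (-0.32), UBE2S (-0.33) and MAD2L2 (-0.33) were lower on average but overlapped. Of the 49 G2/M genes, 2 had a lower log2 fold change than CDC20.

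**Figure D4:**
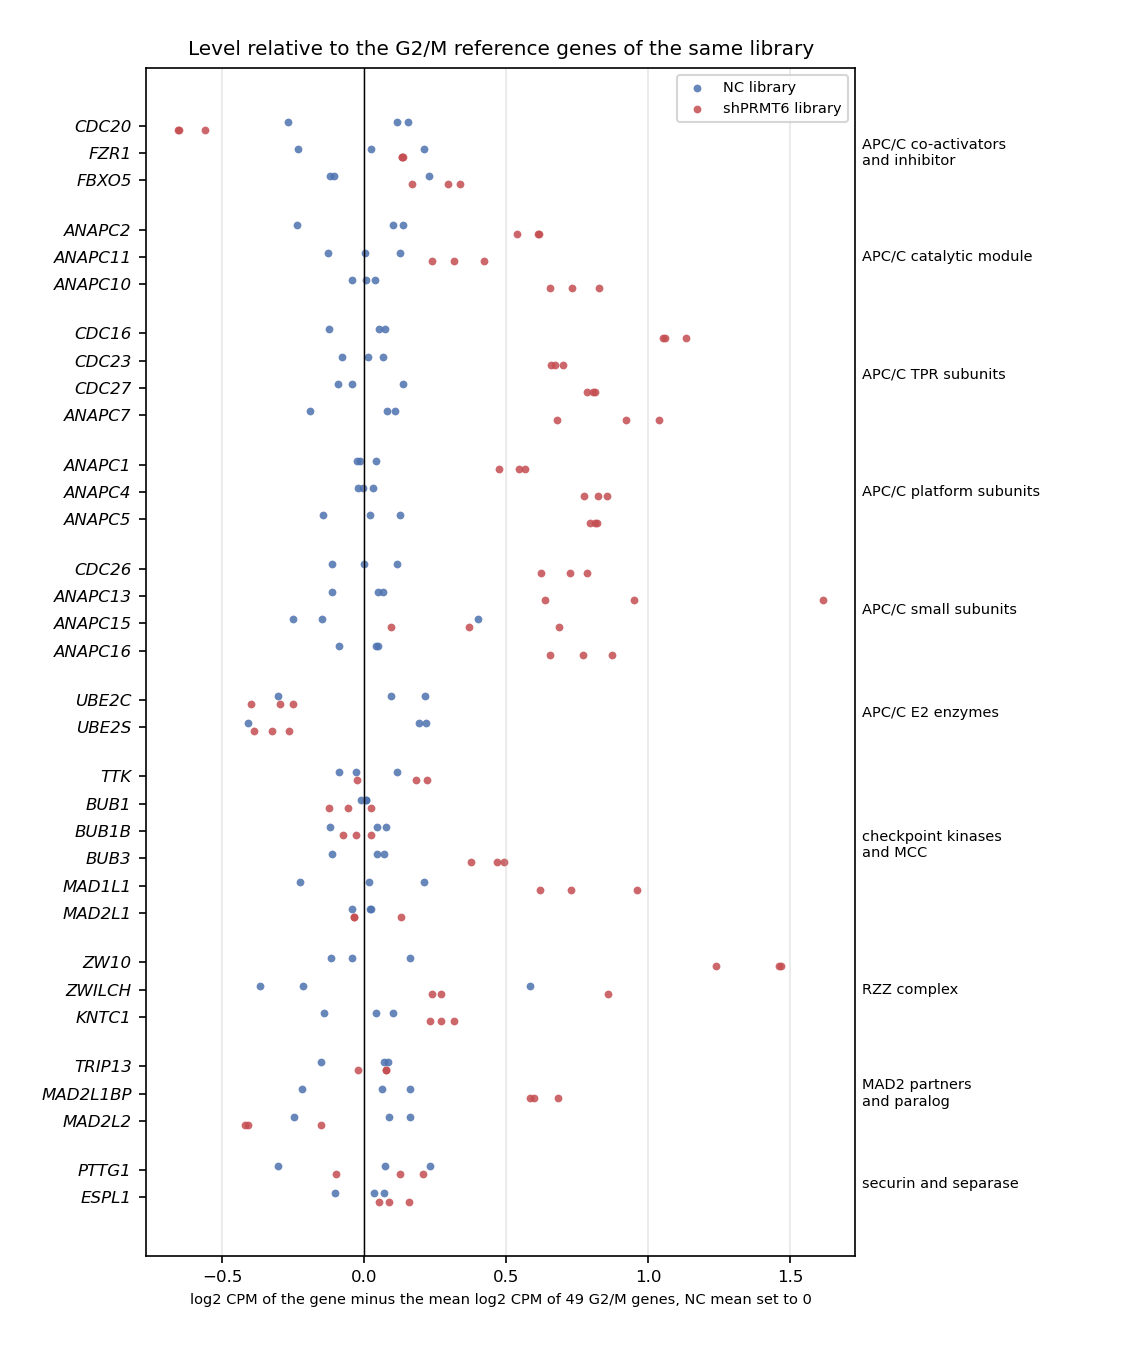
Level of 33 of the 34 genes relative to 49 G2/M genes of the same library (x axis, log2 CPM difference with the NC mean set to 0), for NC (blue) and shPRMT6 (red) libraries. CDC20 lies to the left in all shPRMT6 libraries, the checkpoint kinases and MAD2L1 lie around 0, and the core subunits lie to the right.

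The other genes of the pathway were read from lists made by function. Of 30 APC/C substrates, 26 were lower and none higher, with a median log2 fold change of -0.80. NUSAP1, a spindle microtubule protein, was at 107 ± 2.09 CPM in NC and 53.2 ± 0.941 CPM in shPRMT6 (SD, n = 3 libraries; log2 fold change -1.01). TPX2, which activates Aurora A, had a log2 fold change of -0.79, and CCNB2 (cyclin B2) one of -1.20.

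Among 24 tested modulators of the APC/C and checkpoint, 10 were lower and 1 higher (median -0.26). CDK1, the mitotic kinase, had a log2 fold change of -0.82, CCNF (cyclin F) of -0.97 and ZWINT, a kinetochore protein, of -0.63. PPP2R2A, a subunit of protein phosphatase 2A, was the 1 higher gene, with a log2 fold change of 0.82 (SE 0.0983, adjusted p = 0.00321). Of 14 genes of the cohesin cycle 3 were lower, namely RAD21, the cohesin subunit that separase cuts, at -0.53, ESCO2 at -0.77 and STAG1 at -0.29.

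Of 20 tested DREAM, B-MYB and FOXM1 regulators, which control transcription of mitotic genes, 8 were lower and none higher (median -0.36). MYBL2 (B-MYB) had a log2 fold change of -0.64, E2F2 of -1.16 and E2F1 of -0.62. In the S phase list 31 of 45 genes were lower (median -0.54) and in the G2/M list 36 of 49 (median -0.76). The lists overlap, and 12 genes are shared by the 30 substrates and the 49 G2/M genes. CDKN1B (p27), the protein the study is about, was at 65.5, 63.9 and 60.7 CPM in NC and at 72.3, 69.4 and 71.4 CPM in shPRMT6 (log2 fold change 0.16, adjusted p = 0.116 with edgeR and 0.0163 with DESeq2). Its shPRMT6 libraries all lay above its NC libraries, as did those of 20.3% of all genes tested. The study reports no change of CDKN1B RNA and more CDKN1B protein after PRMT6 silencing. The values here are of RNA only.

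**Figure D5:**
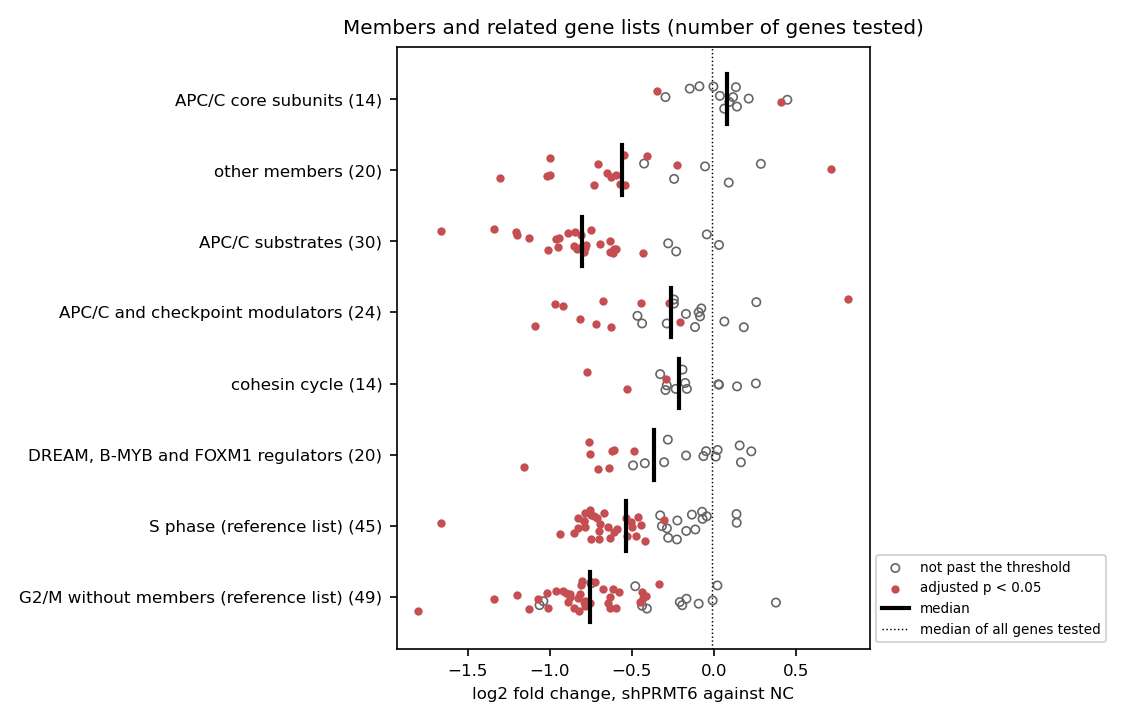
Log2 fold change (x axis) of each tested gene in the core subunits, the other 20 members and 6 related lists, with filled points for an adjusted p under 0.05, a black bar for the median and a dotted line for the median of all genes. The core subunits centre at 0.08, the other members at -0.56 and the substrates at -0.80.

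The annotation limits some members. In 11 of the 34, over 5% of exonic bases overlap another gene or over 5% of 75-base stretches also occur in one. In the other 23 genes 11 were lower, 2 were higher and 10 did not pass. In those 11 genes with overlap or sharing, 4 were lower, 0 were higher and 7 did not pass. Over all genes tested, 9.06% were lower and 9.51% were higher.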

How the data were processed

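The 6 libraries of U87 RNA form 2 groups, NC and shPRMT6, of 3 each. The submitters' processing notes name HISAT2, HTSeq 0.13.5 and GRCh38. The deposited table holds, for every gene and library, a raw count and an FPKM value that the authors computed. The tool that made the FPKM values and the use of strand are not given in the sources used here. Groups follow the labels. Counts were tested with edgeR 4.0.16 in R 4.3.3 (filterByExpr, TMM, quasi-likelihood test, Benjamini-Hochberg adjustment over 18106 genes, no block). Errors are SE of the fit or SD over 3 libraries. No pair of replicates agreed within counting error (chi-square over its degrees of freedom was at least 53.0). The members, lists and alternatives were chosen with earlier results of these data known. All members but 1 are named, with PRMT6, CDKN1B and up to 3 called genes of smallest p per list and direction. Overlaps and shared 75-base stretches were taken from GENCODE 29, promoters from RefSeq. The values of 1 member are not reported here, though counts of members include it. Protein sequences were not analysed here.

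The fits were tested on simulated data for the shPRMT6 and NC comparison with 200 changed genes. A first simulation drew the changed genes from all expressed genes. In it edgeR called 180 of the 191 it tested, DESeq2 on all genes with a count 156 of 199, which missed the limit set for recovery, and DESeq2 on the genes of the edgeR filter 163 of 191. Changed genes were then drawn among those with a mean of at least 100 counts, where both called all 200. Every member has more counts than that. Both simulations gave the libraries less spread than the common coefficient of variation fitted to the data, 0.275. Their changes were also larger than those of most members. Recovery of smaller changes was therefore not tested.

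Alternatives were DESeq2 1.42.0, other scalings and count filters, a replicate block, limma 3.58.1 on log2 FPKM, a stricter threshold (adjusted p under 0.01), and leaving out single libraries. DESeq2 was first run on all genes with a count. The run on the genes of the edgeR filter replaced it after its result had been seen, so both are given.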

Additional observations from a re-analysis of the deposited data

How the results depend on the processing

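No called change of direction occurred for any member in 16 alternatives. The number of members called was 17, and it was 13 to 18 with 1 library left out, 18 with DESeq2 on the same genes, 17 with DESeq2 on all genes with a count, and 12 at an adjusted p under 0.01. Without a filter on FPKM, limma on log2(FPKM + 1) gave 8 (7 lower, 1 higher), with FZR1, UBE2S, TTK, BUB1B, ZW10, ANAPC11, BUB3, KNTC1 and PTTG1 no longer called; the cause was not tested. CDC20, UBE2C, MAD2L2, BUB1, MAD2L1, TRIP13, ESPL1 and CDC16 were called in all 16. The 3 members past the threshold of the methods became 1 in all 3 limma fits and 1 to 4 with 1 library left out. Genes called over the whole table numbered 3362, against 5782 with DESeq2 on the same genes, 1858 with the replicate block, 1073 with unfiltered limma, 1320 at an adjusted p under 0.01 and 1755 to 3183 with 1 library left out; the causes were not tested.

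Replicate numbers are shared by the groups, and the sources used here do not say whether they pair libraries. The deviations of libraries with the same number correlated at 0.0032, -0.054 and -0.030. With 3 libraries a group these values cannot settle whether libraries were prepared in pairs. With the replicate block 15 members were called, without BUB3 (adjusted p = 0.0876) and KNTC1 (0.0694), and PRMT6 had an adjusted p of 0.0803. With 3 libraries a group, the number of libraries limits the ratios, whose exact p cannot go below 0.1.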
